A study of Mus musculus with 8 samples.

Results

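The early growth response genes *Egr1*, *Egr2*, *Egr3* and *Egr4*, and the genes of their corepressors *Nab1* and *Nab2*, were followed in sorted mouse cardiac fibroblasts. These 6 genes were chosen by symbol among the 18957 genes listed in each library, after a genotype difference of family members in these data was known. Their genotype differences are therefore given as a description and support nothing by themselves. All 6 symbols were found, and 5 of them passed the filter on low counts, *Egr4* being the exception.

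The samples were 4 libraries from WT mice and 4 from mice titled *Pdgfra-Cre:Lmna*F/F, whose genotype label is Lmna-KO and which are called *Lmna*-KO here. Each library came from 1 mouse, 3 to 4 weeks old, of the strain given as C57BL/6 (mixed). The *Lmna*-KO mice carried floxed alleles of *Lmna*, the gene of lamin A/C, and a Cre recombinase driven by *Pdgfra*. The WT mice were littermates with wild type alleles only, so the effect of Cre or of the floxed alleles cannot be told apart from that of the *Lmna* deletion. Ventricles were digested with collagenase, and live cells negative for hematopoietic lineage markers and positive for PDGFRA were sorted by flow cytometry.

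EGR proteins are zinc finger transcription factors that bind a GC-rich DNA site. Their genes are immediate-early genes, which are transcribed within minutes of a growth factor, stretch or stress stimulus, largely through serum response factor (SRF) with its ELK partners downstream of ERK and through CREB. NAB1 and NAB2 bind EGR1, EGR2 and EGR3 and repress or modulate their activity, and *Nab2* is itself a known EGR target. EGR4 lacks the region that binds NAB proteins. In fibroblasts EGR1 and EGR2 are known as regulators of matrix genes, and in Schwann cells EGR2 drives myelination.

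The sites through which this control is known to run were looked for in RefSeq promoter windows of GRCm38.p6, which cover 250 bases before to 50 bases after a transcript start. Windows of 4 of the 6 members were searched, namely *Egr2*, *Egr4*, *Nab1* and *Nab2*. No window was examined for the remaining members, so nothing is said about their promoters. The letters searched were the SRF site, known as the CArG box, the short CREB site TGACG, the full CREB site TGACGTCA, and the EGR site GCGNGGGCG, each on both strands. The short site is part of the full site, so the counts of these overlap. The *Egr2* sequence is shown because *Egr2* had the lowest p among the members, and because a CArG box and a pair of short CREB sites lie close together in it. Capitals mark the short CREB site TGACG, the CArG box, and the short CREB site on the other strand, in this order. It lies on the plus strand at chr10:67537619-67537868, inside the *Egr2* gene and outside its annotated exons.
Egr2 promoter: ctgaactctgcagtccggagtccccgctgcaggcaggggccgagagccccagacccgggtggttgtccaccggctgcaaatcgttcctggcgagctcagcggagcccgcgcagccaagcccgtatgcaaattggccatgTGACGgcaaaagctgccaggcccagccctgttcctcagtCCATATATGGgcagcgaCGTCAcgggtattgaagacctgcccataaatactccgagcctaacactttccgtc
The CArG box in this stretch, CCATATATGG, lay 72 to 63 bases before the RefSeq start at position 67537869, and the short CREB sites lay 111 to 107 and 55 to 51 bases before it. Of the 5 *Egr2* windows, which belong to different starts and partly overlap, 3 held this CArG box and 1 held another, CCTTTTTTGG. Of all 32851 windows, 1.63% held a CArG box and 20.8% a short CREB site.

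The *Nab1* window held 3 EGR sites. They are shown with 10 bases on each side because they are places where the letters bound by the EGR proteins occur in the gene of their own corepressor. Capitals mark the EGR site, and all 3 stretches lie on the minus strand within annotated exons of *Nab1*. They are at chr1:52500571-52500599, chr1:52500539-52500567 and chr1:52500468-52500496. The sites lie between 141 and 30 bases before the RefSeq start of this window.
Nab1 site 1: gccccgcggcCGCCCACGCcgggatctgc
Nab1 site 2: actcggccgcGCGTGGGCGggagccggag
Nab1 site 3: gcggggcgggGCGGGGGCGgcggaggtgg
An EGR site was present in 5.55% of all windows. The GC content of the *Nab1* window was 81.7%, against a median of 52.7% over all windows. The *Nab1* window also held 1 short CREB site, 123 to 119 bases before its start. The *Egr4* window held 2 short CREB sites and none of the other motifs, and the *Nab2* window held none of the motifs searched. A match of letters is a description of the sequence, and binding was not measured here.

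The libraries were compared first by the targeted gene. *Lmna* lay at 365 ± 88.4 CPM (counts scaled by library size and TMM factors, mean ± SD, n = 4) in WT and at 111 ± 20.0 in *Lmna*-KO fibroblasts (log2 fold change −1.72, SE 0.22, adjusted p = 0.00492). Total counts lay between 2080555 in WT replicate 2 and 12502949 in *Lmna*-KO replicate 4. Summed fibroblast markers lay between 82819 and 96809 CPM in WT and between 80941 and 93525 CPM in *Lmna*-KO libraries. Reads of 4 Y-linked genes amounted to between 143 and 273 CPM in WT replicates 1, 2 and 4 and *Lmna*-KO replicate 4. They amounted to at most 1.96 CPM in WT replicate 3 and *Lmna*-KO replicates 1 to 3. The sets with and without Y-linked reads are thus divided unequally between the genotypes. *Lmna*-KO replicate 4 also stood apart by its summed markers of cardiac myocytes, at 3122 CPM against at most 610 CPM elsewhere. Over all genes tested, 53 of 13036 (0.407%) passed an adjusted p of 0.05 in the quasi-likelihood test of edgeR, 22 (0.169%) of them higher and 31 (0.238%) lower in *Lmna*-KO fibroblasts.

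*Egr1* encodes the family member that most cell types express after a stimulus. Its gene lies on chromosome 18, from 34859823 to 34864984. In WT replicates 1 to 4 *Egr1* was at 432, 179, 496 and 402 CPM. In *Lmna*-KO replicates 1 to 4 it was at 632, 737, 1582 and 821 CPM. Every *Lmna*-KO library lay above every WT library, WT replicate 2, the shallowest library, was the lowest, and *Lmna*-KO replicate 3 was the highest. The means were 377 ± 138 and 943 ± 433 CPM, with a log2 fold change of 1.32 (SE 0.33, 95% interval 0.61 to 2.03). The adjusted p of 0.117 over all genes did not pass the threshold.

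*Egr2*, also known as Krox20, lies on chromosome 10 from 67535475 to 67542188. It was at 24.4, 11.1, 33.4 and 14.2 CPM in WT replicates 1 to 4. In the *Lmna*-KO replicates it was at 72.4, 117, 264 and 79.2 CPM. The genotypes did not overlap, and replicate 3 was the highest library within each genotype. The means of 20.8 ± 10.2 and 133 ± 89.4 CPM corresponded to a log2 fold change of 2.65 (SE 0.43, 95% interval 1.74 to 3.57, adjusted p = 0.0202). By p, *Egr2* stood at rank 12 of the 13036 genes. In WT replicate 2 its value rested on 22 counts, against 137 to 2293 counts in the other libraries.

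*Egr3*, which is known to be induced downstream of calcium and growth factor signals, lies on chromosome 14 from 70077203 to 70082614. It was at 12.7, 7.04, 8.63 and 10.8 CPM in WT replicates 1 to 4, and at 40.9, 33.0, 125 and 15.2 CPM in the *Lmna*-KO replicates. The genotypes did not overlap here either, but *Lmna*-KO replicate 4 lay close to the WT range. The means were 9.79 ± 2.47 and 53.5 ± 48.9 CPM, with a log2 fold change of 2.42 (SE 0.51, 95% interval 1.32 to 3.52, adjusted p = 0.0645). The value in WT replicate 2 rested on 14 counts. Without *Lmna*-KO replicate 4 the log2 fold change of *Egr3* was 2.72 and its adjusted p 0.00929, and without *Lmna*-KO replicate 3 they were 1.58 and 0.201.

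*Egr4*, on chromosome 6 from 85511121 to 85513589, had 0 counts in 7 of the 8 libraries. A count of 0 allows up to 3 counts in a library, which amounts to 0.280 CPM in WT replicate 1 and 1.51 CPM in WT replicate 2. *Lmna*-KO replicate 4 had 18 counts of *Egr4*, or 1.50 CPM, which is within the limit of WT replicate 2. This is the library with the high cardiac myocyte markers, and the part of other cells in this value was not tested. No fold change is given for *Egr4*.

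The corepressor genes gave another picture. *Nab1*, on chromosome 1 from 52457294 to 52500679, was at 91.8, 137, 129 and 95.4 CPM in WT and at 121, 153, 166 and 80.6 CPM in *Lmna*-KO libraries. Both the highest and the lowest *Nab1* value belonged to *Lmna*-KO libraries, so that the WT range lay within theirs. The log2 fold change was 0.20 (SE 0.24, 95% interval −0.31 to 0.72, adjusted p = 0.827).

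*Nab2*, on chromosome 10 from 127660918 to 127668568, was at 55.5, 70.9, 32.1 and 61.2 CPM in WT and at 51.1, 78.4, 66.1 and 46.7 CPM in *Lmna*-KO libraries. The genotypes overlapped, and WT replicate 3 was the lowest library for *Nab2* while it was the highest WT library for *Egr1* and *Egr2*. The log2 fold change was 0.15 (SE 0.27, 95% interval −0.43 to 0.72, adjusted p = 0.893). The intervals of *Nab1* and *Nab2* both reach 0.72 upwards, so these libraries do not tell a difference below that size from none. Exons of *Nab2* share 40 bases with *Stat6* and 151 bases with *Nemp1* on the other strand, and a further 1050 bases with the antisense gene *Gm16229*. The libraries kept the strand, but the strand setting of the counting is not given in the sources used here, so reads of *Nab2* and of these neighbours may not be separated.

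**Figure D1:**
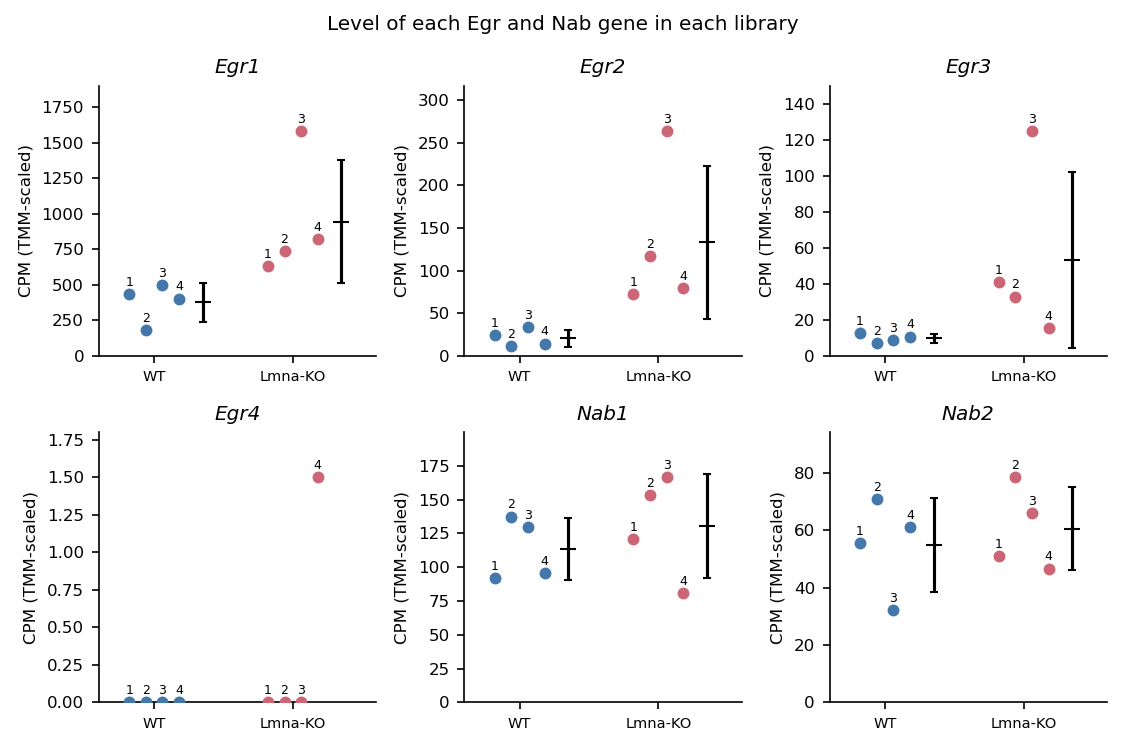
Level of each of the 6 genes in CPM (TMM-scaled, linear axes from 0) in 4 WT and 4 *Lmna*-KO libraries, with points numbered by replicate and a bar for the mean ± SD (not drawn for *Egr4*). The *Lmna*-KO points lie above all WT points for *Egr1*, *Egr2* and *Egr3*, overlap with WT for *Nab1* and *Nab2*, and are at 0 for *Egr4* in 3 of 4 libraries.

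Of the 5 members tested, 1 passed the threshold, *Egr2*, which was higher, where 0.169% of all genes did so. The groups did not overlap for 3 members, all higher in *Lmna*-KO fibroblasts, where 4.06% of all genes showed this pattern. The members were chosen with this contrast known, and nothing is read from these shares. Other fits of the same counts passed more members. DESeq2 passed *Egr1* (adjusted p = 0.00319), *Egr2* and *Egr3* (adjusted p = 0.000535), whereas without WT replicate 4 no member passed, with *Egr2* at a log2 fold change of 2.49 and an adjusted p of 0.0523.

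Y-linked reads moved with genotype, and the members were therefore also read within the libraries that shared this feature. Among libraries without Y-linked reads, *Egr1* was at 496 CPM in the single WT library and at 632 to 1582 CPM in the 3 *Lmna*-KO libraries. *Egr2* was at 33.4 CPM against 72.4 to 264 CPM, and *Egr3* at 8.63 CPM against 33.0 to 125 CPM. Among libraries with Y-linked reads, the single *Lmna*-KO library lay at 821, 79.2 and 15.2 CPM for *Egr1*, *Egr2* and *Egr3*, above the highest WT values of 432, 24.4 and 12.7 CPM. Each of these sets holds 1 library of one genotype, and no test was made within them. Every *Lmna*-KO library lay above every WT library for these 3 genes. The order within the sets follows from that, and nothing about Y-linked reads is read from it. With Y-linked expression as a covariate in the fit across all genes, the log2 fold change of *Egr2* was 2.34 (adjusted p = 0.0184), that of *Egr1* 1.21 (adjusted p = 0.127) and that of *Egr3* 1.99 (adjusted p = 0.173).

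Levels of different genes were compared per kilobase of exon. In WT fibroblasts *Egr1* was the most abundant member at 84.1 ± 30.7 CPM per kb, rank 429 of 13002 genes with a length. *Nab1* followed at 27.7 ± 5.67 and *Nab2* at 18.7 ± 5.61 CPM per kb, and the ranges of *Nab1* and *Nab2* overlapped, while the lowest *Egr1* library, at 39.9, lay above the highest *Nab1* library, at 33.5. *Egr2*, at 6.11 ± 2.99 CPM per kb, stood near the median of all genes, which was 5.71, and below every *Nab2* value. *Egr3*, at 2.22 ± 0.56 CPM per kb, was the lowest of the 5 members that passed the filter, with a highest library at 2.88 and a lowest *Egr2* library at 3.26.

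In *Lmna*-KO fibroblasts *Egr1* was at 210 ± 96.6 CPM per kb, rank 146. *Egr2* came next at 39.2 ± 26.3 CPM per kb and rank 1003, with *Nab1* at 31.8 ± 9.34, *Nab2* at 20.6 ± 4.93 and *Egr3* at 12.1 ± 11.1. Among these 4 genes each overlapped with its neighbour in the order, so that only *Egr1* stood clear of the rest. The place of *Egr2* above *Nab1* rested on replicate 3, without which the means per kb were 26.2 CPM for *Egr2* and 28.7 CPM for *Nab1*. In replicates 1 and 2 *Egr2* lay below *Nab1*, at 21.3 against 29.5 and at 34.6 against 37.4 CPM per kb, and in replicate 4 it lay above, at 23.3 against 19.7. Without replicate 3 the mean of *Egr3* was 6.69 CPM per kb.

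**Figure D2:**
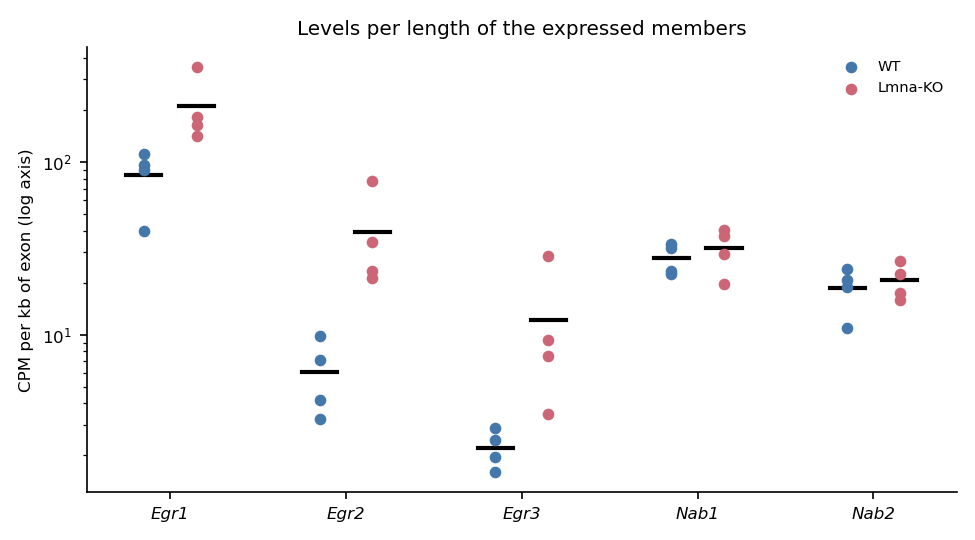
Level per length of the 5 expressed members, in CPM per kb of exon on a log axis, with 1 point per library and a black line at each genotype mean (4 WT and 4 *Lmna*-KO libraries). *Egr1* is the highest member in both genotypes, and *Egr2* and *Egr3* lie under the *Nab* genes in WT, with *Egr2* reaching their range in *Lmna*-KO libraries.

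The counts were also divided among the *Egr* genes. Of all counts on the 4 *Egr* genes, *Egr1* made up 92.3 ± 1.38% in WT and 84.4 ± 3.89% in *Lmna*-KO libraries. *Egr2* made up 5.09 ± 1.25% and 11.2 ± 2.43%, and *Egr3* 2.60 ± 0.81% and 4.30 ± 2.07%. The genotypes did not overlap in the shares of *Egr1* and *Egr2*, but they did in that of *Egr3*, with *Lmna*-KO replicate 4 at 1.66%, within the WT range. These shares were not adjusted for gene length or tested.

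Ratios within a library do not depend on its scaling. There were 5.64, 6.18, 6.74 and 3.53 *Egr2* counts per 100 *Egr1* counts in WT replicates 1 to 4, and 11.5, 15.9, 16.7 and 9.65 in the *Lmna*-KO replicates. The genotypes did not overlap, with means of 5.52 ± 1.40 and 13.4 ± 3.42. The ratio of *Egr3* to *Egr1* overlapped between genotypes, at 1.74 to 3.93 in WT and 1.86 to 7.90 in *Lmna*-KO libraries, with replicate 4 as the lowest of the latter.

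Activators were also set against corepressors. For each *Nab1* count there were 4.70, 1.30, 3.83 and 4.21 *Egr1* counts in WT and 5.23, 4.80, 9.51 and 10.2 in *Lmna*-KO libraries. These ranges did not overlap, although WT replicate 1 and *Lmna*-KO replicate 2 were nearly equal. For each *Nab2* count there were 0.44, 0.16, 1.04 and 0.23 *Egr2* counts in WT and 1.42, 1.50, 3.99 and 1.70 in *Lmna*-KO libraries, again without overlap. *Egr2* counts were thus fewer than those of *Nab2* in 3 of 4 WT libraries and more numerous in all 4 *Lmna*-KO libraries. The counts were not adjusted for gene length. Per kilobase of exon, *Egr2* lay below *Nab2* in WT replicate 3 too, at 9.83 against 10.9 CPM per kb. The ratio of *Egr1* to *Nab2* overlapped, at 2.52 to 15.4 in WT and 9.40 to 23.9 in *Lmna*-KO libraries, since *Nab2* was low in WT replicate 3. The ratio of the corepressors to each other overlapped between genotypes, with 2.29 ± 1.17 *Nab1* counts per *Nab2* count in WT and 2.14 ± 0.36 in *Lmna*-KO libraries. All of these ratios share the contrast by which the genes were chosen, and none was tested.

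**Figure D3:**
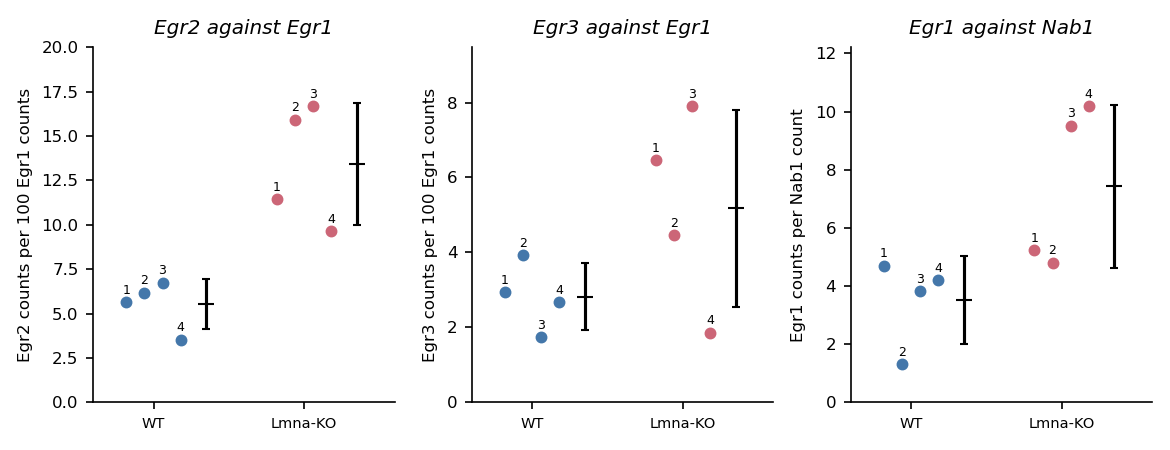
Ratios of counts within each library, with *Egr2* and *Egr3* per 100 *Egr1* counts and *Egr1* per *Nab1* count, for 4 WT and 4 *Lmna*-KO libraries numbered by replicate with the mean ± SD beside them (linear axes from 0). The *Egr2* to *Egr1* ratio and the *Egr1* to *Nab1* ratio separate the genotypes, while the *Egr3* to *Egr1* ratio overlaps through *Lmna*-KO replicate 4 at 1.86.

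The members differed in how much they varied among mice of a genotype. The SD of log2 CPM of *Egr3* was 0.36 in WT and 1.25 in *Lmna*-KO libraries, against medians over all genes of 0.42 and 0.49. That of *Egr2* was 0.72 and 0.85, and that of *Egr1* 0.66 and 0.58. The SD of *Nab1* was 0.30 and 0.47, and that of *Nab2* 0.50 and 0.34, so that *Nab2* was above the median of all genes in WT and below it in *Lmna*-KO libraries.

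The other genes of the pathway were read from lists written from general knowledge, and the same fit was used. Of the upstream inputs of the *Egr* genes (ERK and its kinases, ELK factors, SRF and its cofactors, CREB), none of 15 tested genes passed the test in edgeR, DESeq2 or limma-voom, and 3 had an unadjusted p under 0.05 in edgeR, as did 11.9% of all genes. The lowest p values belonged to *Elk1*, the ternary complex factor that binds with SRF, with a log2 fold change of −0.93 (SE 0.28, adjusted p = 0.195), and *Mkl2*, an SRF cofactor, with −0.64 (SE 0.21, adjusted p = 0.224). *Creb1* followed with 0.50 (SE 0.22, adjusted p = 0.391). The genotypes did not overlap for *Elk1* and *Mkl2*, which lay lower in *Lmna*-KO libraries, as did 3.97% of all genes without overlap. The median log2 fold change of the list was −0.05, against 0.02 over all genes.

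Of the partners of EGR proteins and the chromatin complex through which NAB proteins repress, none of 18 tested genes passed in edgeR, DESeq2 or limma-voom, and 2 had an unadjusted p under 0.05 in edgeR, against 11.9% of all genes. These were *Chd3*, a NuRD remodeler, with a log2 fold change of −0.51 (SE 0.20, adjusted p = 0.332), and the NuRD subunit *Gatad2a* with −0.53 (SE 0.24, adjusted p = 0.401). *Ddx20* followed by p with 0.65 (SE 0.46, adjusted p = 0.639). The median of the list was −0.11.

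Genes that EGR proteins are known to activate or bind lay on both sides of 0. None of 23 tested genes passed in the edgeR fit used throughout. There, 8 had an unadjusted p under 0.05, 5 of them higher and 3 lower, against 11.9% of all genes in either direction. DESeq2 passed 2 of the listed genes, *Arc* and *Timp1*, and *Arc* is named here after its values were seen. With limma-voom 1 passed. In edgeR without a filter 3 passed as higher and 2 as lower, and leaving out single libraries gave 0 to 1. The 3 lowest p values in edgeR belonged to *Thbs1*, a matricellular protein gene, with a log2 fold change of 1.79 (SE 0.44, adjusted p = 0.114), to the angiogenic factor *Vegfa* with −0.84 (SE 0.24, adjusted p = 0.166), and to *Timp1*, an inhibitor of matrix proteases, with 1.63 (SE 0.49, adjusted p = 0.192). Of the 23 genes, 11 had a log2 fold change above 0, and the median was −0.07.

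Among 7 myelin genes that EGR2 regulates in Schwann cells, 3 passed the filter and none passed the test in edgeR, DESeq2 or limma-voom, with no unadjusted p under 0.05 in edgeR. *Pmp22* had a log2 fold change of −0.48 (SE 0.24), *Prx* −0.43 (SE 0.57) and *Mbp* 0.37 (SE 1.28). Schwann cell markers summed to 38.2 to 69.3 CPM in WT and 49.6 to 69.9 CPM in *Lmna*-KO libraries. In sorted cell pools such as these, fewer cells of a type and less RNA per cell cannot be told apart.

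The other immediate-early genes were read from the same fit. Of 34 tested genes, 5 passed the test in edgeR, all higher, where 0.169% of all genes did so. They were *Ier3*, a survival-related early gene (log2 fold change 1.88, SE 0.31, adjusted p = 0.0221), *Gadd45b*, a stress sensor (1.74, SE 0.30, adjusted p = 0.0239), *Btg2*, an antiproliferative gene (2.08, SE 0.37, adjusted p = 0.0315), and the orphan nuclear receptors *Nr4a2* (2.78, SE 0.55, adjusted p = 0.0427) and *Nr4a1* (1.92, SE 0.39, adjusted p = 0.0471). In the list 30 of 34 log2 fold changes were above 0, against 51.8% over all genes, and the median was 0.97. The 4 genes below 0, named here after their values were seen, were *Klf2* at −0.33, *Jund* at −0.04, *Klf4* at −0.03 and *Gadd45g* at −0.02. For 16 genes, or 47.1%, every *Lmna*-KO library lay above every WT library, against 4.06% of all genes. The count of 5 became 14 with DESeq2 and 13 with limma-voom and lay between 0 and 8 when single libraries were left out, with 0 without WT replicate 4 or *Lmna*-KO replicate 3. The list was written with results of these data known and is not independent of them.

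**Figure D4:**
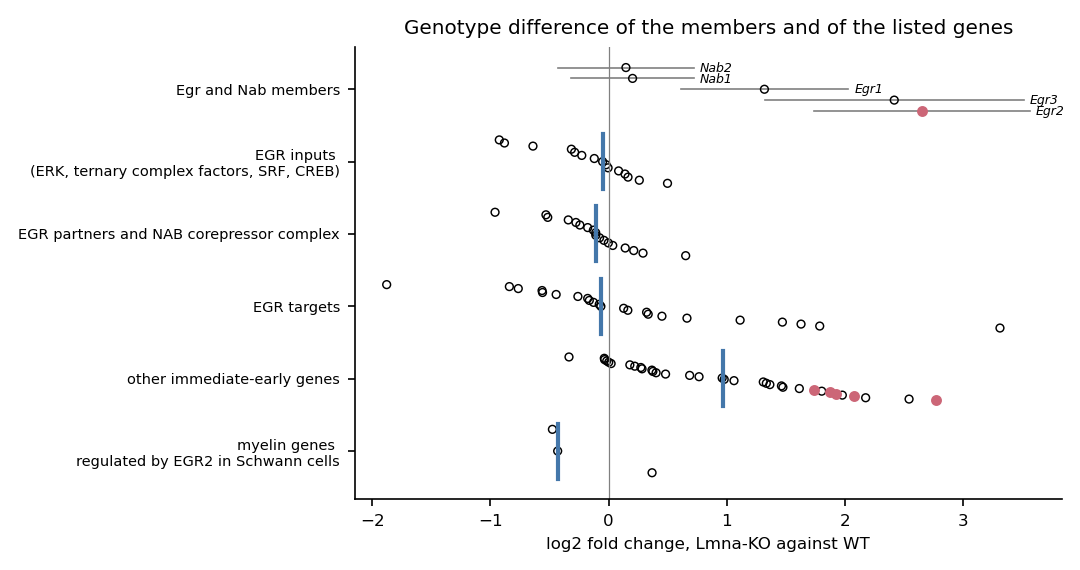
Log2 fold change of *Lmna*-KO against WT for the 5 tested members, with 95% intervals, and for each tested gene of 5 lists, with a blue line at each list median. Filled points are genes with an adjusted p under 0.05 in edgeR (*Egr2* and 5 of 34 other immediate-early genes), open points are the rest, and the medians of the other lists lie between −0.43 and −0.05.

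The *Egr* genes were set beside the other immediate-early genes library by library. The mean log2 CPM of these 34 genes was 5.87, 5.70, 6.27 and 5.86 in WT replicates 1 to 4 and 6.77, 6.89, 7.27 and 6.76 in the *Lmna*-KO replicates. WT replicate 2 was the lowest library and *Lmna*-KO replicate 3 the highest by this mean, and the same held for *Egr1*, *Egr2* and *Egr3*. Within WT, replicate 3 was the highest by this mean and for *Egr1* and *Egr2*, but not for *Egr3*. *Lmna*-KO replicate 4 had the second highest *Egr1* value and the lowest mean among the *Lmna*-KO libraries. Immediate-early genes are known to respond to tissue digestion and cell handling, and the part of the cell preparation in these values was not tested. Macrophage markers summed to 48.6 to 182 CPM in WT and to 53.7 to 473 CPM in *Lmna*-KO libraries, and T cell markers to 1.01 to 10.4 and 0 to 5.94 CPM. Endothelial markers summed to 180 to 280 and 108 to 236 CPM, mural markers to 230 to 392 and 203 to 386 CPM, and cardiac myocyte markers to 264 to 610 and 188 to 3122 CPM. In *Lmna*-KO replicate 3, where *Egr1*, *Egr2* and *Egr3* were highest, the mural, macrophage, Schwann cell and cardiac myocyte markers lay within the WT ranges. The endothelial markers, at 169 CPM, the T cell markers, at 0 CPM, and the fibroblast markers, at 80941 CPM, lay below them.

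**Figure D5:**
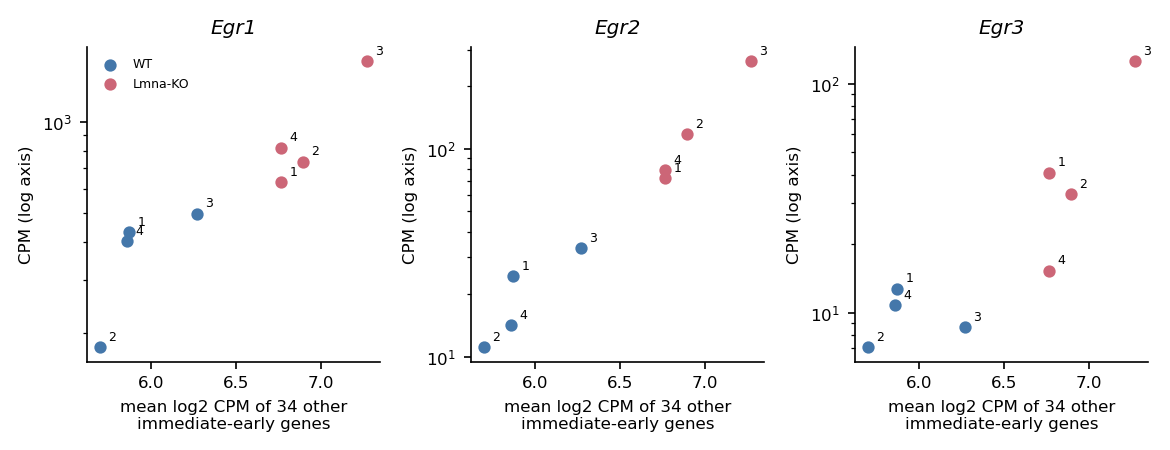
Level of *Egr1*, *Egr2* and *Egr3* (CPM, log axis) against the mean log2 CPM of 34 other immediate-early genes in the same library, with points numbered by replicate (blue, 4 WT and red, 4 *Lmna*-KO). WT replicate 2 is at the lower left and *Lmna*-KO replicate 3 at the upper right for all 3 genes, and *Egr3* of *Lmna*-KO replicate 4 lies low for its mean of 6.76.

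Promoter windows were present for 30 of the 35 other immediate-early genes that the files list. A short CREB site, as in *Egr2*, *Egr4* and *Nab1*, occurred in 18 of them (60.0%) and in 23.0% of all genes with a window. An EGR site, as in *Nab1*, occurred in 12 (40.0%) and in 6.27% of all genes. The 12 were *Gadd45b*, *Btg2*, *Nr4a2*, *Nr4a1*, *Socs3*, *Zfp36*, *Fosb*, *Maff*, *Klf2*, *Fosl2*, *Klf4* and *Dusp2*. *Klf2* and *Klf4* had log2 fold changes below 0, and *Dusp2* was not tested. A CArG box, as in *Egr2*, occurred in 2 (6.67%), *Zfp36* and *Dusp5*, and in 1.81% of all genes. The full CREB site occurred in 3 of the 30 genes, *Btg2*, *Maff* and *Dusp1*, and in 2.03% of all genes. The genes holding these motifs are named after the search. The windows of these genes had a median GC content of 64.2%, against 52.7% over all windows, and the EGR site consists of G and C in all of its fixed letters.

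The genes nearest to each member in profile were taken as those with the lowest root mean square difference of centred log2 CPM over the 8 libraries. For *Egr1* these were *Fosb* at 0.21, *Id3* at 0.26 and *Ier2* at 0.29. For *Egr2* they were *Zfp781* at 0.23, *Nfe2l3* at 0.40 and *Btg2* at 0.45, and for *Egr3* *Nr4a3* at 0.43, *Thbs1* at 0.48 and *Coq10b* at 0.55. *Zfp781* is a low gene, at 0.24 ± 0.20 CPM in WT. The nearest genes of *Nab1* were *Spty2d1* at 0.15, *Zfp329* at 0.15 and *Nup155* at 0.16, and those of *Nab2* were *Oxsr1* at 0.11, *Rnf111* at 0.11 and *Rufy1* at 0.14. Among the members, *Nab1* and *Nab2* were 0.41 apart, *Egr2* and *Egr3* 0.66, *Egr1* and *Egr2* 0.72 and *Egr1* and *Egr3* 0.73. These distances grow with the spread of each gene. The root mean square of centred log2 CPM was 0.35 for *Nab1* and 0.38 for *Nab2*, less than their distance. It was 0.85 for *Egr1*, 1.46 for *Egr2* and 1.29 for *Egr3*, more than the distances between these genes. *Egr2* was farthest from the corepressor genes, at 1.36 from *Nab1* and 1.48 from *Nab2*. Neighbours in this sense share the contrast between genotypes and the libraries, and nothing about a shared control follows from them.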

How the data were processed

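RNA of sorted PDGFRA-positive, lineage-negative cells was analysed as 8 libraries, 4 of WT mice and 4 of *Pdgfra-Cre:Lmna*F/F mice (called *Lmna*-KO). The authors aligned 150 bp paired reads of stranded, ribosomal RNA-depleted libraries to mm10 with HISAT2 and counted them on GENCODE genes with featureCounts. They deposited whole-number counts per gene symbol, not scaled for library size, and their RUV normalization is not part of these counts. The submitters' processing notes name FastQC and DESeq2. Each file lists 18957 genes with at least 4 counts in total, 24 of them as dates, so rarer genes are missing. Floors of 3 counts cover counting error only, and the 95% intervals of fold changes rest on the spread among mice.

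Counts were analysed with edgeR 4.0.16 in R 4.3.3 (TMM factors, filterByExpr, quasi-likelihood test with genotype as the only term, Benjamini-Hochberg adjustment over 13036 genes, threshold 0.05). CPM were TMM-scaled, with a prior count of 2 on the log2 scale. Exon lengths came from GENCODE M21 (GRCm38) and promoter sequences from RefSeq (GRCm38.p6), searched in Python 3.11.15. The procedure was tested on simulated counts. The members and lists were chosen with earlier results of these data known. Named are the members, *Lmna*, the genes of each list that passed or had its 3 lowest p, and the 3 genes nearest in profile to each member. Both genotypes use the same replicate numbers, but no source states that these pair mice. Alternatives were DESeq2 1.42.0, limma-voom 3.58.1 with quality weights, upper-quartile or RLE factors, no filter, at least 10 counts in every library, leaving out each library, the replicate block, and 1 RUVr factor. Y-linked expression as a covariate and thinning to the shallowest library were added after the data were seen. Some items are not reported here.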

Additional observations from a re-analysis of the deposited data

Results flagged for a closer look

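In a group of 4 libraries, a value was marked when its gap to the nearest other value exceeded the 95% critical share of the range of the group given by Dixon. Of 102 groups examined 12 were marked. The rule marks about 1 in 20 groups of independent values with a normal distribution. These groups share libraries and their distribution was not tested, so no excess is read from the count. Among the members and their ratios, *Egr4* was at 1.50 CPM in *Lmna*-KO replicate 4 and at 0 in the other 3. With the others at 0, any value above 0 would have been marked. *Lmna*-KO replicate 3 had 3.99 *Egr2* counts per *Nab2* count, against 1.42 to 1.70 in the others. WT replicate 3 had 4.03 *Nab1* counts per *Nab2* count, against 1.56 to 1.94.

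Of the genes named beside the members, *Ier3* was at 86.2 CPM and *Nr4a1* at 1312 CPM in *Lmna*-KO replicate 3, the library with the highest *Egr* values. *Timp1* was at 38.2 CPM and *Prx* at 13.1 CPM in WT replicate 2, *Mbp* at 7.46 CPM in WT replicate 4, and *Rnf111* at 29.2 CPM in WT replicate 3. Of the summed markers, macrophage markers were at 473 CPM and cardiac myocyte markers at 3122 CPM in *Lmna*-KO replicate 4, and T cell markers at 10.4 CPM in WT replicate 3.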

How the results depend on the processing

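The log2 fold change of *Egr1* lay between 0.95 and 1.47, that of *Egr2* between 2.09 and 2.96 and that of *Egr3* between 1.58 and 2.72 when single libraries were left out, and none of these 3 genes changed direction under any alternative run. *Egr2* passed in every alternative run except without WT replicate 4. *Egr3* also passed without a filter, with at least 10 counts in every library (adjusted p = 0.0470), without *Lmna*-KO replicate 4 and after thinning (adjusted p = 0.0423), and *Egr1* without a filter (adjusted p = 0.00360). *Nab1* turned to −0.063 with Y-linked expression as a covariate. *Nab2*, which lay between −0.046 and 0.28 when single libraries were left out, turned to −0.018 with limma-voom, to −0.046 without WT replicate 3 and to −0.0055 without *Lmna*-KO replicate 2. The cause was not tested.

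Over all genes the count of 53 became 309 with DESeq2, 126 with limma-voom, 274 without a filter, 81 with 1 RUVr factor and 119 with Y-linked expression as a covariate. Leaving out single libraries gave 13 to 76, with 24 without WT replicate 1, 24 without WT replicate 2, 13 without WT replicate 4, 26 without *Lmna*-KO replicate 2 and 17 without replicate 3. The count of 1 member became 3 with DESeq2, 3 without a filter, 2 with at least 10 counts in every library and 2 after thinning, and lay between 0 (without WT replicate 4) and 2 (without *Lmna*-KO replicate 4) when single libraries were left out. The count of 5 listed genes became 16 with DESeq2, 14 with limma-voom, 19 without a filter and 10 with 1 RUVr factor, and lay between 0 and 8 when single libraries were left out, with 2 without WT replicate 1, 3 without WT replicate 2, 8 without WT replicate 3, 0 without WT replicate 4, 1 each without *Lmna*-KO replicate 2 or 3 and 8 without replicate 4.

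With the replicate block, 36 genes, 1 member and 8 listed genes passed, and *Egr3* had a log2 fold change of 2.03 (adjusted p = 0.126). Residuals of same-numbered libraries had correlations from −0.07 to 0.04 over 9905 genes, so the numbers were not taken as pairs. In WT replicate 2, *Egr2* and *Egr3* rested on 22 and 14 counts, which limits their precision there.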
